A study of Mus musculus with 28 samples.

Results

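The genes described here are 8 chemokine ligands that T cells make: *Ccl1*, *Ccl3*, *Ccl4*, *Ccl5*, *Ccl17*, *Ccl20*, *Ccl22* and *Xcl1*. They were taken by name as 8 of the 24089 genes in the RNA-seq table, over all 24 of its columns. Naive CD4+ CD62L+ T cells came from the spleen and lymph nodes of *Tgfbr1* f/f *Ert2-cre*+ mice, aged 8 to 10 weeks and of both sexes. Cre in this model depends on tamoxifen, and the sources used here name no cell type to which it is limited. In the study's scheme for this line, mice given oil for 5 days were the WT group. Mice given tamoxifen for 5 days were the *Tgfbr1* KO group, so WT cells carried the floxed alleles and Cre as well. Titles name oil or tamoxifen for the DNase-seq samples and only WT or KO for the RNA-seq samples. The study also lists a *Tgfbr1* f/f *Cd4-cre*+ line, so line and treatment of the RNA-seq samples are taken from that scheme. Under it, tamoxifen exposure and genotype cannot be told apart. Every culture was stimulated through CD3 and CD28. Control cultures had no further cytokine, and the others received either TGF-β, IL-4 or the combination, written TGF-β + IL-4. The methods give doses for the combination, 2 ng/ml TGF-β and 10 ng/ml IL-4. Each of the 8 groups, 4 per genotype, had 3 libraries. The length of the RNA-seq culture is not given in the sources used here. DNase-seq, which maps DNase I hypersensitive sites (DHSs, stretches of open chromatin), gave 1 library for each genotype in control culture and 1 with TGF-β + IL-4.

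Chemokines are small secreted proteins that draw cells along a gradient by binding G protein-coupled receptors on the responding cell. CCL3, CCL4 and CCL5 draw inflammatory cells, and CCL3 and CCL5 bind CCR1. CCL17 and CCL22 share CCR4, a receptor of Th2 cells, regulatory T cells and skin-homing T cells, CCL20 binds CCR6 on Th17 cells and B cells, CCL1 binds CCR8, and XCL1 binds XCR1 on cross-presenting dendritic cells. Activated T cells are a known source of CCL3, CCL4, CCL5, XCL1 and CCL1, whereas CCL17 and CCL22 are best known from dendritic cells and macrophages and can be induced by IL-4. A T cell culture can therefore express both a ligand and its receptor.

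The headings of the RNA-seq table conflict with a separate table of read counts that covers 8 WT libraries. In all 8 the genes with a count of 0 matched the zeros of the column at that library's place in number order, for at least 99.8% of the 1991 to 1996 genes compared, whereas no other column passed 85.9%. The column headed with the library's own name was that column for only 2 of the 8. Values were therefore read by position, with WT libraries first and, in each block of 4 columns, control first, then each cytokine alone, then the combination. This reading could not be checked for the other 4 WT columns (replicate 2) or for the 12 KO columns. The genotype of a column was the same under both readings. Read by heading, none of the ligands passed the test in any of the 16 comparisons made, and 0 to 7 genes of the whole table passed in each.

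Values are RPKM, read number divided by gene length and by library size, so levels of different genes are levels per length. Redundant reads had been dropped by the authors, and the effect of this on the highest genes was not tested. A gene was called changed at an adjusted p under 0.01 (limma on log2(RPKM + 1), Benjamini-Hochberg over all genes tested) together with a fold change over 1.5, and only genes with a mean of at least 1 RPKM in the libraries of a fit were tested. The labels number the samples of a group but do not say whether they came from separate mice, so p-values measure the spread between these samples, which may be technical. Read totals are unknown, and relative depth ran from 0.795 to 1.66 of the WT TGF-β + IL-4 replicate 3 library. The T cell genes *Cd3e* (213 to 360 RPKM) and *Cd4* (75.6 to 122 RPKM) were high in every library. *Tgfbr1* itself was at 3.02 to 3.31 RPKM in WT control, 13.9 to 14.5 in WT TGF-β and 17.6 to 20.7 in WT TGF-β + IL-4, and at 2.32 to 5.18 in the 12 KO libraries. The KO libraries thus overlapped WT control at this gene, and a gene-level value does not show deleted exons separately. In KO cells TGF-β changed 1 of 9563 genes tested. *Skil* was at 4.69 to 6.3 RPKM in WT control, 9.38 to 11.3 in WT TGF-β and 1.55 to 2.34 in KO. *Il9* was at 8.15 to 10.9 RPKM in WT control, 40.1 to 45.9 with TGF-β and 33.6 to 36.1 with TGF-β + IL-4. The paper states that neither cytokine alone induces *Il9*, and the reason for this difference was not tested. In KO *Il9* was at 0.25 to 0.583 RPKM in control and 0.936 to 2.33 with TGF-β, without overlap. This change of 1.03 on the log2 scale was not called.

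The ligands spanned a wide range of levels. In WT control cells *Ccl4* stood highest at 598 ± 13.6 RPKM (SD, n = 3), followed by *Xcl1* at 346 ± 39.1, *Ccl3* at 136 ± 3.32 and *Ccl1* at 77.4 ± 9.61. *Ccl22* (21.3 ± 6.4) and *Ccl5* (15.8 ± 2.85) were next and overlapped, and *Ccl20* (3.48 ± 0.439) and *Ccl17* (1.02 ± 0.387) were the lowest.

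**Figure D1:**
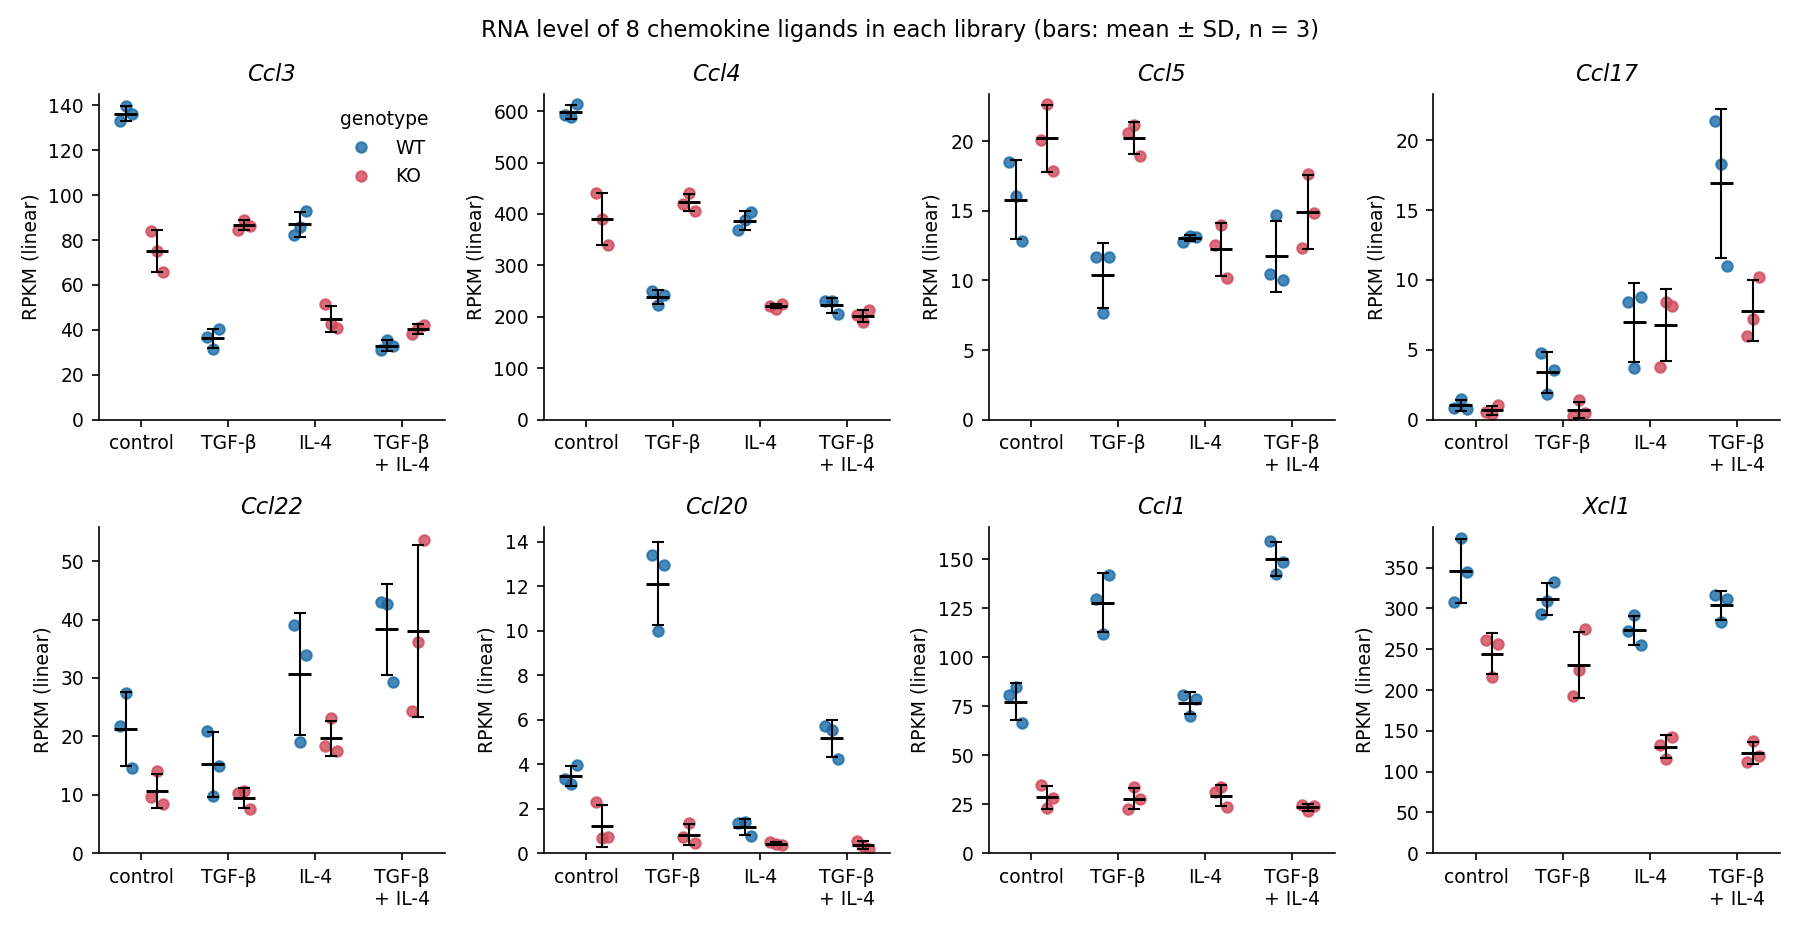
RNA level (RPKM, linear axes from 0) of the 8 ligands in each of the 24 libraries, WT in blue and KO in red, by culture condition, with black bars for the mean ± SD of 3 libraries. *Ccl3* and *Ccl4* drop under TGF-β in WT but not in KO, *Ccl20* and *Ccl1* are high with TGF-β in WT only, and *Ccl17* climbs with IL-4 in both genotypes.

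In 13 of the 16 comparisons a larger share of the ligands than of all genes was called, and the ligands did not move in 1 direction. These shares are a description, since the ligands were chosen with earlier results of these data known and the 16 comparisons share libraries. All 8 passed the filter in the WT comparisons. With TGF-β 4 of 8 were called against WT control (2 higher, 2 lower), where 5.71% of all genes tested were called. With IL-4 it was 4 of 8 (1 higher, 3 lower) beside 1.29%, and with TGF-β + IL-4 it was 4 of 8 (2 higher, 2 lower) beside 9.27%. The median log2 change of the ligands under TGF-β + IL-4 was 0.14, beside 0.03 over all genes. Adding IL-4 to TGF-β called 3 of 8 (2 higher, 1 lower) beside 3.03%, and adding TGF-β to IL-4 called 5 of 8 (3 higher, 2 lower) beside 9.28%. The test of whether the effects of both cytokines add up on the log scale called 0 of 8 by limma beside 1.77%, with 3 at an unadjusted p under 0.05 (*Ccl3*, *Ccl4* and *Xcl1*).

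KO cells kept changes in ligand RNA with IL-4 and had none that passed with TGF-β. KO TGF-β against KO control called 0 of the 7 ligands that passed the filter by limma, beside 0.0105% of all genes, and *Ccl3* alone had an unadjusted p under 0.05. KO IL-4 against KO control called 5 of 7 (1 higher, 4 lower) beside 2.51%, and KO TGF-β + IL-4 called 5 of 7 (2 higher, 3 lower) beside 1.92%. The ligand left out by the filter was *Ccl17* in the first of these fits and *Ccl20* in the other two. All comparisons with a control group in 1 genotype share those control libraries.

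**Figure D2:**
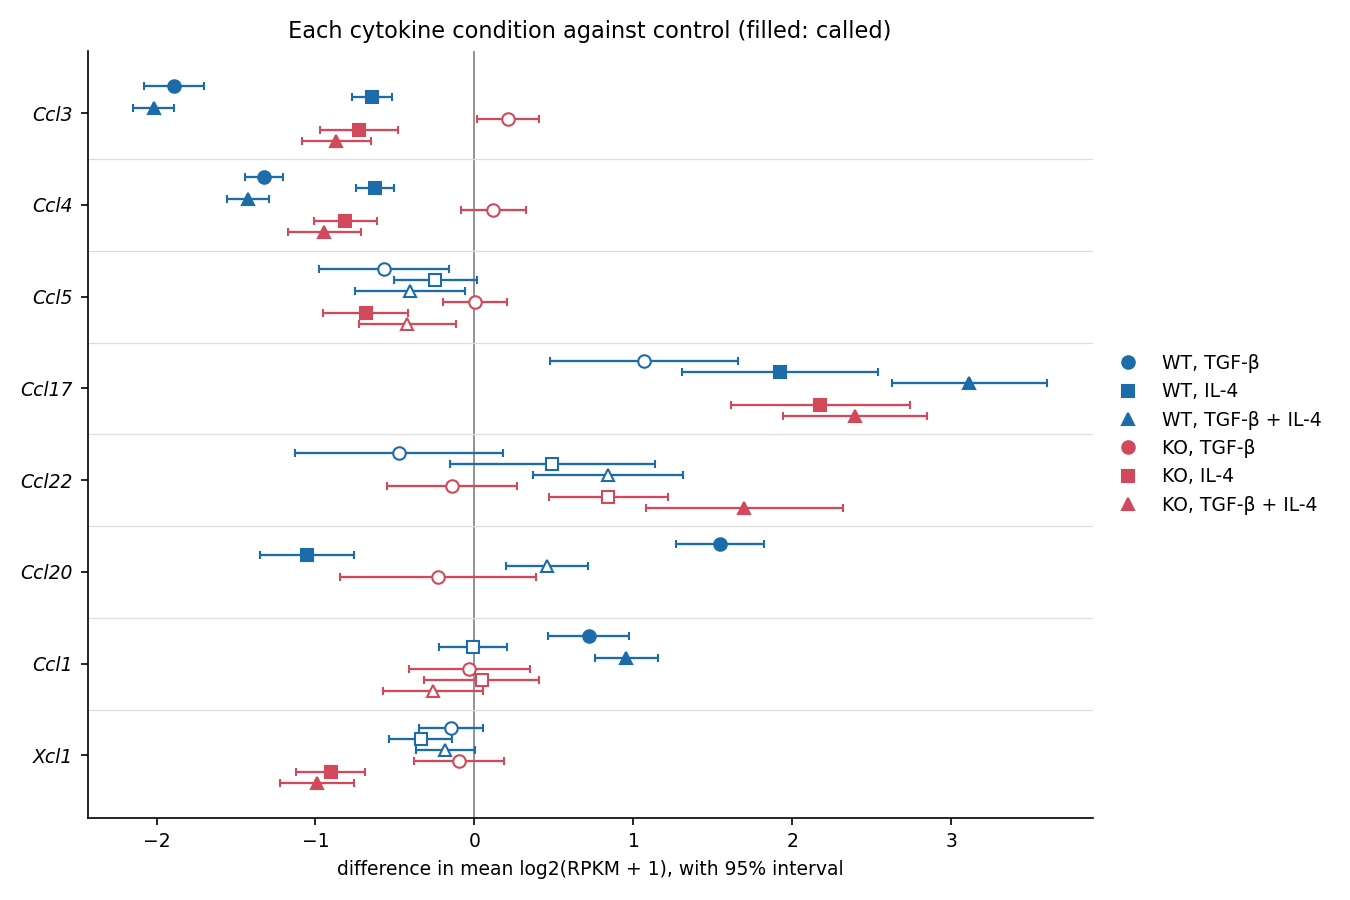
Difference in mean log2(RPKM + 1) of each ligand between a cytokine condition and control of the same genotype (x axis), with 95% intervals from limma, for WT (blue) and KO (red) and for TGF-β (circles), IL-4 (squares) and TGF-β + IL-4 (triangles), with filled symbols for called changes. KO values for TGF-β lie between -0.23 and 0.21, WT values reach -1.89 for *Ccl3* and 1.54 for *Ccl20*, and *Ccl17* under IL-4 lies at 1.92 in WT and 2.18 in KO.

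*Ccl3* and *Ccl4*, which encode MIP-1α and MIP-1β and lie side by side on chromosome 11, fell with either cytokine in WT cells and with IL-4 only in KO cells. *Ccl3* was at 133, 139.8 and 136 RPKM in WT control (replicates 1, 2 and 3) and at 36.6, 31.7 and 40.2 with TGF-β. It was at 82.2, 85.9 and 93.0 with IL-4 and at 30.9, 35.4 and 32.6 with TGF-β + IL-4. The control libraries lay above every library with a cytokine, and those with IL-4 alone lay between control and the other groups. *Ccl3* was 3.77-fold lower with TGF-β (log2 change -1.89 ± 0.08 SE, adjusted p = 4.36e-06), 1.57-fold lower with IL-4 (-0.64 ± 0.06, adjusted p = 0.000448) and 4.14-fold lower with TGF-β + IL-4 (-2.02 ± 0.06, adjusted p = 4.76e-08). Adding IL-4 to TGF-β gave a difference of -0.13 (95% interval -0.32 to 0.07), which did not pass. These libraries are bulk cultures, so fewer cells that make a ligand and less RNA per cell cannot be told apart.

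*Ccl4* had the same order of groups at a higher level. WT control libraries held 592, 588 and 613 RPKM, those with TGF-β 249, 224 and 242, those with IL-4 369, 388 and 405, and those with TGF-β + IL-4 231, 231 and 205. No library with a cytokine reached a control library, and TGF-β and TGF-β + IL-4 overlapped each other. *Ccl4* was 2.51-fold lower with TGF-β (-1.32 ± 0.05, adjusted p = 3.2e-06), 1.54-fold lower with IL-4 (-0.63 ± 0.05, adjusted p = 0.000358) and 2.69-fold lower with TGF-β + IL-4 (-1.43 ± 0.06, adjusted p = 3.82e-07). The effects of both cytokines together were smaller than their sum on the log scale by 0.52 ± 0.08 (adjusted p = 0.00238), which is under the fold threshold. Over the 24 libraries, which fall into 8 groups, *Ccl3* and *Ccl4* had a Pearson correlation of 0.96 on the log2(RPKM + 1) scale.

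In KO cells the TGF-β groups of both genes stayed at the level of control. *Ccl3* was at 84.2, 75 and 65.6 RPKM in KO control and at 84.6, 88.9 and 86.1 in KO TGF-β, and the KO TGF-β libraries lay just above all 3 controls without passing the test (0.21, 95% interval 0.02 to 0.40, adjusted p = 1.00). *Ccl4* was at 442, 390.0 and 341 RPKM in KO control and at 420.2, 441 and 407 in KO TGF-β, which overlapped. With IL-4 *Ccl3* fell to 51.6, 42.5 and 40.7 RPKM (1.67-fold lower, adjusted p = 0.00349) and *Ccl4* to 222, 216 and 224 (1.77-fold lower, adjusted p = 0.000511), all below the KO controls. With TGF-β + IL-4 *Ccl3* was at 38.2, 40.7 and 42.3 RPKM (adjusted p = 0.00148) and *Ccl4* at 203, 189.9 and 213 (adjusted p = 0.00127), again below every control.

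KO and WT cells differed at these genes in opposite directions in different cultures. In control cultures *Ccl3* was 1.82-fold lower in KO (-0.86 ± 0.09, adjusted p = 0.000638) and *Ccl4* 1.53-fold lower (-0.62 ± 0.09, adjusted p = 0.00406). Under IL-4 *Ccl3* was 1.94-fold lower in KO (-0.94 ± 0.09, adjusted p = 0.000242) and *Ccl4* 1.75-fold lower (-0.81 ± 0.05, adjusted p = 4.16e-05). Under TGF-β *Ccl3* was 2.39-fold higher in KO (1.24 ± 0.08, adjusted p = 7.34e-06) and *Ccl4* 1.77-fold higher (0.82 ± 0.05, adjusted p = 8.34e-06). The difference between genotypes in the TGF-β effect was 2.10 ± 0.13 for *Ccl3* (adjusted p = 3.89e-07) and 1.44 ± 0.11 for *Ccl4* (adjusted p = 2.8e-06), and 4.71% of all genes passed this test. In the TGF-β + IL-4 cultures *Ccl4* differed by -0.14 (95% interval -0.30 to 0.02) and *Ccl3* by 0.29 (0.12 to 0.45, adjusted p = 0.0156), and neither passed.

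Some of the smaller calls depended on single replicate numbers or settings. The fall of *Ccl3* with IL-4 in WT did not pass without replicate 1 (adjusted p = 0.0284) or replicate 2 (0.011), nor that of *Ccl4* without replicate 1 (0.034), and the lower *Ccl4* of KO control lost its call when any 1 replicate number was left out (0.0112 to 0.0244). In KO TGF-β + IL-4 the falls of *Ccl3* and *Ccl4* were lost without replicate 1 (adjusted p = 0.0344 and 0.0343) or 3 (0.0134 and 0.0139), and in KO IL-4 that of *Ccl3* without replicate 2 (0.036) or 3 (0.0105). With the replicate number as a block the lower *Ccl4* of KO control (adjusted p = 0.0215) and the fall of *Ccl3* in KO TGF-β + IL-4 (0.0127) were lost. With no filter on low values these were lost too (0.0208 and 0.0101), as was the fall of *Ccl3* in KO IL-4 (0.0297). The 8 identified libraries are WT replicates 1 and 3, so for WT they give the same fit as leaving out replicate 2.

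*Ccl5*, which encodes RANTES, a ligand of CCR1 and CCR3, and lies on the same chromosome, changed less. WT control libraries held 18.5, 16.1 and 12.8 RPKM and those with TGF-β 11.7, 7.67 and 11.7. The TGF-β libraries were all below control, but the difference (-0.57 ± 0.18, adjusted p = 0.0581) did not pass. Libraries with IL-4 held 12.8, 13.2 and 13.1 RPKM and those with TGF-β + IL-4 held 10.4, 14.7 and 10.0, and both overlapped control and did not pass (-0.25 ± 0.11 and -0.40 ± 0.15). In KO cells it was at 20.1, 22.7 and 17.9 RPKM in control, 20.6, 21.1 and 19 with TGF-β, 12.6, 14 and 10.2 with IL-4 and 12.3, 17.6 and 14.8 with TGF-β + IL-4. All libraries with IL-4 lay below the controls, and *Ccl5* fell 1.65-fold with IL-4 alone (-0.68 ± 0.12, adjusted p = 0.00773), a call lost whenever 1 replicate number was left out (adjusted p of 0.013 to 0.0807), with no filter (0.0468) or without a trend (0.0132). Under TGF-β it was 1.95-fold higher in KO than in WT (0.92 ± 0.14, adjusted p = 0.00124), with no overlap, and this was lost without replicate 1 (adjusted p = 0.0133).

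CD8 T cells and NK cells are other makers of these ligands, and their markers were low but moved between groups. The sum of *Cd8a* and *Cd8b1* was 24.8 to 26.9 RPKM in WT control, 16.6 to 17.3 with TGF-β, 29.9 to 36.3 with IL-4 and 25.3 to 26.7 with TGF-β + IL-4. In KO it was 14.8 to 16.7 in control, 14.3 to 15.2 with TGF-β and 26.3 to 28.3 in the cultures with IL-4. The 4 NK cell markers summed to 3.24 to 10.4 RPKM over all libraries, highest in WT IL-4. Where *Ccl3* and *Ccl4* were lower than in control, the CD8 sum was higher in WT IL-4 and in both KO cultures with IL-4, overlapped control in WT with both cytokines, and was lower in WT TGF-β. Its part in these results was not tested.

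*Ccl17* and *Ccl22* encode the ligands of CCR4 and are neighbours on chromosome 8. The 250 bases before the annotated start of *Ccl17* are shown because it had the largest fold rise with IL-4 among the ligands tested, and because the STAT6 motif (TTC and GAA with any 4 bases between them, the half-sites read by the factor that IL-4 activates, which reads the same on both strands) was found in this window of *Ccl17* and of none of the other 7 ligands. Of 22232 protein-coding genes 5.50% hold this motif in the same window. The sequence was read from the mm9 genome at chr8:97334103-97334352 (plus strand, 5′ to 3′), and capitals mark the motif, which starts 154 bases before the start.
*Ccl17* upstream: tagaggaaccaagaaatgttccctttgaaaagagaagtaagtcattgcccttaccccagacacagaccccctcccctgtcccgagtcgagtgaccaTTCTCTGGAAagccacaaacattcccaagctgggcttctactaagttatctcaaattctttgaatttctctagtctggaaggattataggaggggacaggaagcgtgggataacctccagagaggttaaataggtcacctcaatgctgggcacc
A match to the letters is a description and not a measured binding site. The match overlaps 1 occurrence of GGAAA, the core read by NFAT, which 55.0% of all genes hold in that window.

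*Ccl17* rose with IL-4 in both genotypes. WT control libraries held 0.815, 1.47 and 0.788 RPKM and WT IL-4 libraries 8.44, 3.72 and 8.78, with no overlap (6.82-fold higher, log2 change 1.92 ± 0.27 SE, adjusted p = 0.00546). KO control libraries held 0.548, 0.401 and 1.04 RPKM and KO IL-4 libraries 3.78, 8.39 and 8.11 (10.2-fold higher, 2.18 ± 0.25, adjusted p = 0.000722). The genotypes overlapped under IL-4 (-0.03, 95% interval -0.74 to 0.68). With TGF-β + IL-4 *Ccl17* reached 21.4, 18.3 and 11.0 RPKM in WT (16.5-fold above control, 3.11 ± 0.22, adjusted p = 8.67e-06) and 6.01, 7.18 and 10.2 in KO (11.8-fold, 2.39 ± 0.20, adjusted p = 0.000365). Every one of these WT libraries was above every KO library, but the difference (-1.0 ± 0.25, adjusted p = 0.0161) did not pass.

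With TGF-β alone *Ccl17* did not pass the test in WT. WT TGF-β libraries held 4.76, 1.80 and 3.58 RPKM, all above control (1.07 ± 0.25, adjusted p = 0.0222). KO TGF-β libraries held 0.281, 1.38 and 0.488 RPKM and lay below each of the WT TGF-β libraries (4.72-fold lower, -1.34 ± 0.29, adjusted p = 0.00692). Adding TGF-β to IL-4 in WT gave a 2.42-fold higher *Ccl17* (1.19 ± 0.29, adjusted p = 0.00935), and adding IL-4 to TGF-β a 5.00-fold higher one (2.04 ± 0.28, adjusted p = 0.00115). The higher *Ccl17* on adding TGF-β to IL-4 was not called with a pseudocount of 0.1, with no filter on low values, under median ratio scaling or quantile normalization, or without a trend (adjusted p of 0.0109 to 0.0453), nor without replicate 1 (0.0483) or 2 (0.0385). The rise with IL-4 in WT was lost with the replicate number as a block (adjusted p = 0.0279), with no filter (0.0365) and without replicate 1 (0.131) or 3 (0.036). The genotype difference under TGF-β was lost with the block (0.0272), with no filter (0.0281), under quantile normalization (0.0107), without a trend (0.0113) and without replicate 1 (0.071) or 3 (0.0678). With no filter the rise on adding IL-4 to TGF-β (0.0138) and that with IL-4 in KO (0.0134) were lost, and without replicate 1 that with TGF-β + IL-4 in KO (0.0133).

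*Ccl22* was the more abundant of the pair and varied more between replicates. In WT it was at 21.7, 27.4 and 14.7 RPKM in control, 20.9, 9.83 and 14.9 with TGF-β, 39.1, 19 and 34.0 with IL-4 and 43.0, 42.6 and 29.3 with TGF-β + IL-4. The TGF-β + IL-4 libraries were above all controls, but the rise of 0.84 ± 0.21 (adjusted p = 0.0108) just missed the threshold, and IL-4 alone overlapped control. Against TGF-β alone, TGF-β + IL-4 was 2.52-fold higher (1.32 ± 0.23, adjusted p = 0.00434), which was lost without replicate 1 (0.0129) or 3 (0.0272), with no filter (0.032) or without a trend (0.0109). In KO cells *Ccl22* was at 9.60, 14 and 8.47 RPKM in control, 10.3, 10.7 and 7.50 with TGF-β, 18.4, 23.1 and 17.6 with IL-4 and 24.3, 36.2 and 53.5 with TGF-β + IL-4. Both sets with IL-4 lay above control while TGF-β overlapped it, and *Ccl22* rose 3.56-fold with TGF-β + IL-4 (1.70 ± 0.27, adjusted p = 0.00945), whereas the change with IL-4 (0.84 ± 0.17, adjusted p = 0.0143) did not pass. That call was lost with the replicate number as a block (adjusted p = 0.0261), with no filter (0.0542), under median ratio scaling (0.0106) or quantile normalization (0.0119), without a trend (0.0147) and without replicate 1 (0.0411) or 3 (0.0868). WT and KO did not differ at *Ccl22* past the threshold in any culture, with an interval of -0.67 to 0.55 under TGF-β + IL-4. Over the 24 libraries *Ccl17* and *Ccl22* had a correlation of 0.83.

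Markers of myeloid and dendritic cells also differed between these groups, in part in another order than this pair. The 8 markers, of which 4 had a mean of at least 1 RPKM and none was at 0 in every library, summed to 24 to 42.1 RPKM in WT control, 31.4 to 47.5 with TGF-β, 21.5 to 34.1 with IL-4 and 41.4 to 82.0 with TGF-β + IL-4. In KO they summed to 10.2 to 11.1 in control, 11.8 to 21.7 with TGF-β, 16.7 to 16.9 with IL-4 and 18.9 to 27.2 with TGF-β + IL-4. The sum was led by the class II gene *H2-Aa* (6.17 to 62.1 RPKM over all libraries) and *Lyz2* (0.111 to 16.7), whereas *Csf1r*, *Flt3* and *Itgax* did not pass 0.433, 0.407 and 0.621 RPKM. In WT the sum with IL-4 alone, where *Ccl17* rose, overlapped control, and in KO the sum with TGF-β lay above control where neither ligand rose. The KO sums with IL-4 and with TGF-β + IL-4, where *Ccl17* rose, also lay above control. With IL-4 in KO, 1 of the 4 markers tested was called higher. None of the 4 markers tested was called with TGF-β + IL-4 against control in WT. *Lyz2* was at 1.03 there (adjusted p = 0.012 by limma), *H2-Aa* at 0.73 (0.0544), *Cd68* at 0.17 (0.152) and the dendritic cell gene *Zbtb46* at -0.29 (0.111). Against WT IL-4, *Lyz2* was called higher with TGF-β + IL-4 (1.47, adjusted p = 0.0016). The part of such cells in the *Ccl17* and *Ccl22* results was not tested.

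*Ccl20* encodes the only chemokine ligand of CCR6 and is a gene of the Th17 program. Its upstream sequence is shown because it had the largest fold difference between genotypes under TGF-β among the ligands tested. The 250 bases before its start, at chr1:83113099-83113348 of mm9 (plus strand, 5′ to 3′), hold 1 match to a form of the NF-κB motif (GGG, any 2 bases and TTTCC, searched on both strands), in capitals.
*Ccl20* upstream: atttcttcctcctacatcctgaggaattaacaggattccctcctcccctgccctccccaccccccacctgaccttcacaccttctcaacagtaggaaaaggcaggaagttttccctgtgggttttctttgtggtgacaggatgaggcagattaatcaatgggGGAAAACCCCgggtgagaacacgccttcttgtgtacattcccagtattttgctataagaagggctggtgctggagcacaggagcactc
This form was found for *Ccl20* and *Ccl5* among the 8 ligands and for 1.37% of all genes, and it contains the GGAAA core of NFAT. The AP-1 motif TGANTCA (5.88% of all genes) and the cAMP response element TGACGTCA (1.98%) were found for none of the 8. The short Smad motif CAGAC was found for 7 of the 8, *Ccl20* being the exception, and for 40.6% of all genes.

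TGF-β raised *Ccl20* and IL-4 lowered it in WT cells. Control libraries held 3.36, 3.11 and 3.97 RPKM, TGF-β libraries 13.4, 9.97 and 13, IL-4 libraries 1.34, 1.41 and 0.779 and TGF-β + IL-4 libraries 5.71, 5.55 and 4.22. The 4 groups did not overlap. *Ccl20* was 3.48-fold higher with TGF-β (1.54 ± 0.12, adjusted p = 8.13e-05) and 2.96-fold lower with IL-4 (-1.05 ± 0.13, adjusted p = 0.00278). With TGF-β + IL-4 it lay 2.35-fold below TGF-β alone (-1.09 ± 0.13, adjusted p = 0.00054) and 4.39-fold above IL-4 alone (1.51 ± 0.14, adjusted p = 3.84e-05), and against control the change of 0.46 ± 0.11 (adjusted p = 0.0109) did not pass. The departure from additive effects on the log scale was -0.04 (95% interval -0.47 to 0.40).

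In KO cells *Ccl20* was low throughout. Libraries held 2.30, 0.661 and 0.723 RPKM in control, 0.720, 1.35 and 0.448 with TGF-β, 0.499, 0.395 and 0.360 with IL-4 and 0.546, 0.325 and 0.195 with TGF-β + IL-4. Every KO library lay below every WT library of the same culture. *Ccl20* was 14.4-fold lower in KO than in WT under TGF-β (-2.85 ± 0.18, adjusted p = 6.23e-06) and 14.5-fold lower under TGF-β + IL-4 (-2.18 ± 0.14, adjusted p = 2.78e-05), while the control difference (-1.08 ± 0.24, adjusted p = 0.0239) did not pass and under IL-4 the gene was below the filter. The TGF-β effect differed between genotypes by -1.77 ± 0.34 (adjusted p = 0.00401), a call lost without replicate 1 (adjusted p = 0.0612) or 3 (0.0412), with a pseudocount of 0.1 (0.029) or with no filter (0.0158). The fall with IL-4 in WT was lost without replicate 1 (adjusted p = 0.0607) or 2 (0.0103), with the replicate number as a block (0.021) and with no filter (0.0229), and the fall when IL-4 was added to TGF-β without replicate 1 (0.0116) or 3 (0.0123).

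*Ccl1*, the ligand of CCR8, followed TGF-β in WT and was low in KO cells in each culture. In WT it was at 80.6, 84.9 and 66.6 RPKM in control, 129.6, 112 and 142 with TGF-β, 80.9, 70.2 and 78.6 with IL-4 and 159.6, 143 and 149 with TGF-β + IL-4. The groups with TGF-β lay above those without it, and control and IL-4 overlapped. *Ccl1* was 1.65-fold higher with TGF-β (0.72 ± 0.11, adjusted p = 0.00297), 1.94-fold higher with TGF-β + IL-4 (0.96 ± 0.09, adjusted p = 4.01e-05) and 1.96-fold higher with TGF-β + IL-4 than with IL-4 (0.96 ± 0.06, adjusted p = 5.71e-06). The change with IL-4 alone was -0.01 (95% interval -0.23 to 0.21). Without replicate 1 (adjusted p = 0.0639) or 3 (log2 change 0.54, a fold under 1.5), or with no filter (0.0122), the rise with TGF-β alone was not called.

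KO libraries held 34.7, 22.9 and 28.1 RPKM of *Ccl1* in control, 22.5, 33.6 and 27.6 with TGF-β, 31.2, 33.7 and 23.4 with IL-4 and 24.5, 21.4 and 24.3 with TGF-β + IL-4. These 4 groups overlapped, and all 12 libraries lay below all 12 WT libraries. KO cells had 2.71-fold less *Ccl1* in control (-1.42 ± 0.15, adjusted p = 0.000721), 4.58-fold less under TGF-β (-2.17 ± 0.14, adjusted p = 6.6e-06), 2.60-fold less under IL-4 (-1.36 ± 0.12, adjusted p = 0.000217) and 6.43-fold less under TGF-β + IL-4 (-2.63 ± 0.07, adjusted p = 3.85e-07). The effect of TGF-β + IL-4 differed between genotypes by -1.22 ± 0.18 (adjusted p = 0.000774), a call lost without replicate 1 (0.0249) or 3 (0.0424), and that of TGF-β alone by -0.75 ± 0.23 (adjusted p = 0.0559), which did not pass.

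*Xcl1*, which encodes lymphotactin, was abundant and did not pass the test for any cytokine in WT cells. WT libraries held 308, 386 and 345 RPKM in control, 294, 309.7 and 333 with TGF-β, 272, 292 and 256 with IL-4 and 316, 284 and 311 with TGF-β + IL-4. Only the IL-4 libraries lay apart from control, below it (-0.34, 95% interval -0.54 to -0.14, adjusted p = 0.0692). KO libraries held 261, 216 and 257 RPKM in control, 193, 224 and 274 with TGF-β, 133, 115 and 143 with IL-4 and 112, 137 and 119 with TGF-β + IL-4. The KO groups with IL-4 lay below both KO groups without it, 1.88-fold below control for IL-4 (-0.90 ± 0.10, adjusted p = 0.000476) and 1.99-fold for TGF-β + IL-4 (-0.99 ± 0.10, adjusted p = 0.00109). *Xcl1* was lower in KO than in WT by 2.10-fold under IL-4 (-1.07 ± 0.08, adjusted p = 0.000122) and 2.47-fold under TGF-β + IL-4 (-1.30 ± 0.08, adjusted p = 2.9e-05). The control (-0.50 ± 0.10, adjusted p = 0.0166) and TGF-β (-0.45 ± 0.11, adjusted p = 0.0143) differences did not pass.

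The effect of TGF-β + IL-4 on *Xcl1* differed between genotypes by -0.81 ± 0.14 (adjusted p = 0.00266), and 4.18% of all genes passed this test. It was lost without replicate 1 (adjusted p = 0.11) or 3 (0.121), and with the replicate number as a block (0.0219). Without replicate 1 the falls of *Xcl1* in KO IL-4 (adjusted p = 0.0128) and KO TGF-β + IL-4 (0.0414) were lost as well, the latter also without replicate 3 (0.0507) and with the block (0.0116). The effect of IL-4 alone differed by -0.57 (95% interval -0.88 to -0.26), which did not pass after adjustment (0.203). For that comparison limma called 0 of 8 ligands, with 2 at an unadjusted p under 0.05 (*Ccl5* and *Xcl1*), and 0.0414% of all genes.

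Between the genotypes, KO control cells differed from WT control in 3 of the 7 ligands that passed the filter (all lower), beside 2.46% of all genes. Under TGF-β 6 of 8 differed (3 higher in KO, 3 lower) beside 9.68%, under IL-4 4 of 7 (all lower) beside 2.99%, and under TGF-β + IL-4 3 of 8 (all lower) beside 8.44%. The ligands higher in KO under TGF-β were *Ccl3*, *Ccl4* and *Ccl5*, and those lower were *Ccl1*, *Ccl17* and *Ccl20*. The interaction of genotype with TGF-β was called for 3 of 8 ligands beside 4.71%, and that with TGF-β + IL-4 for 3 of 8 beside 4.18%.

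Markers of other cells differed between the genotypes too. In KO against WT control all 3 of the B cell markers tested, 2 of 4 myeloid and dendritic cell markers (*H2-Aa* and *Lyz2*) and *Cd8a* were lower. The 4 B cell markers listed summed to 4.40 to 5.20 RPKM in KO control and 10.3 to 16.7 in WT control, 4.16 to 5.78 and 7.93 to 9.16 with TGF-β, 3.6 to 4.21 and 4.73 to 12.8 with IL-4, and 4.62 to 12 and 6.59 to 17.3 with TGF-β + IL-4. The genotypes thus overlapped in the last of these only. Of the 2 CD8 markers, *Cd8a* was lower in KO in each culture (-1.19 to -1.60), and the more abundant *Cd8b1* was called in none. Their sum lay below WT in KO control, TGF-β and IL-4 cultures. Under TGF-β + IL-4 it was 26.3 to 28.3 RPKM in KO and 25.3 to 26.7 in WT, which overlapped. The part of such cells in the genotype differences was not tested.

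**Figure D3:**
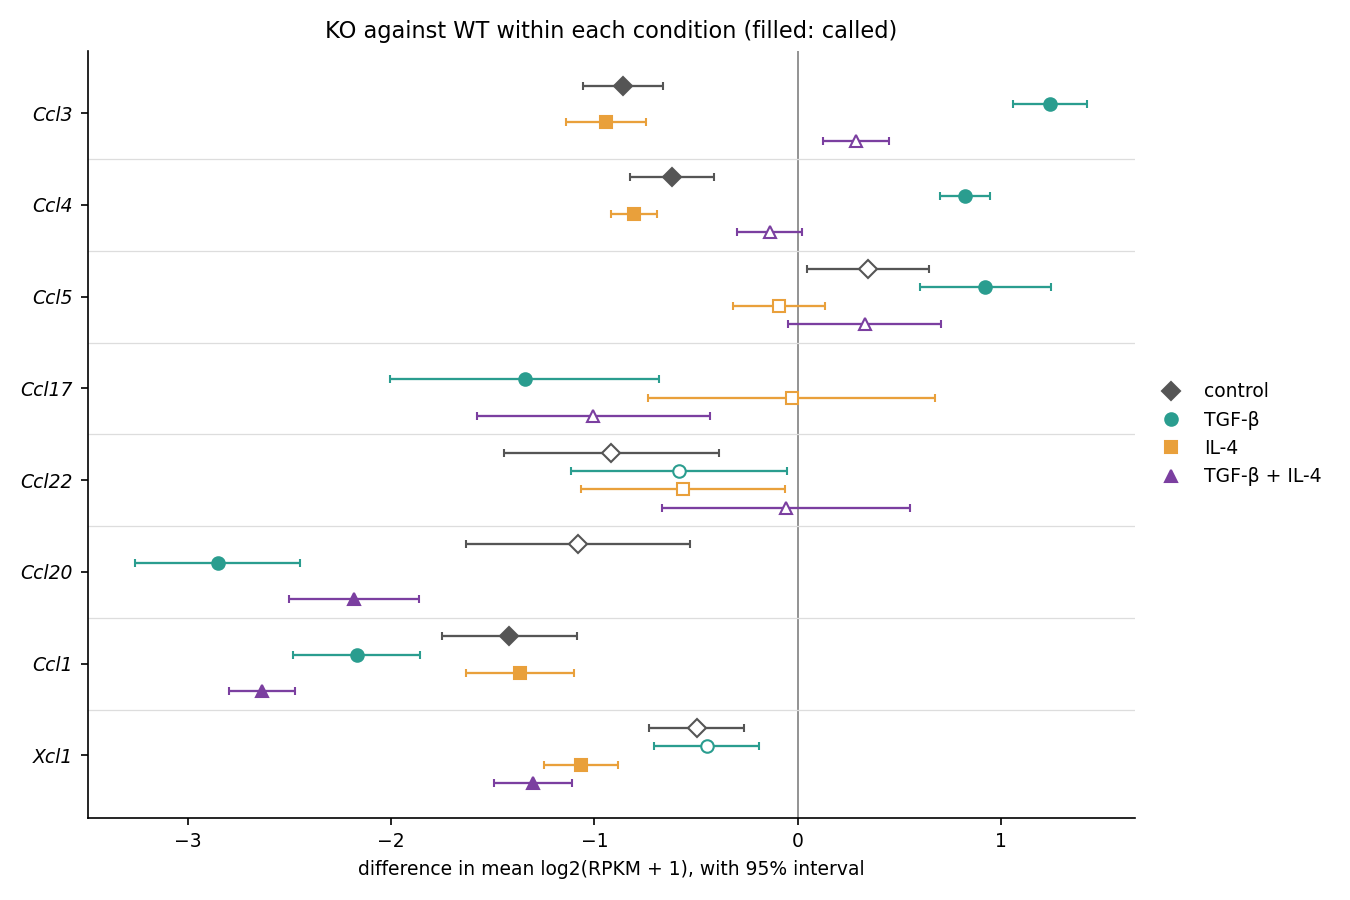
KO minus WT difference in mean log2(RPKM + 1) of each ligand within a culture (x axis, 95% intervals from limma), for control (diamonds), TGF-β (circles), IL-4 (squares) and TGF-β + IL-4 (triangles), with filled symbols for called differences and none where the gene was below the filter. *Ccl1* lies left of 0 in all cultures (-1.36 to -2.63), whereas *Ccl3* is at -0.86 in control and 1.24 under TGF-β.

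Of the 8 receptors listed for the ligands, 4 passed the filter when WT cultures with TGF-β + IL-4 were set against control, and 3 rose, *Ccr8* (2.73 ± 0.06, adjusted p = 6.65e-09), *Ccr4* (1.76 ± 0.07, adjusted p = 2.51e-07) and *Ccr6* (1.32 ± 0.10, adjusted p = 1.11e-05). *Xcr1* did not pass (0.03, 95% interval -0.17 to 0.23). The median of the 4 was 1.54, beside 0.03 over all genes, of which 9.27% were called.

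*Ccr8*, the receptor of CCL1, was at 50.9 to 58.1 RPKM in WT control, 359 to 381 with TGF-β, 125 to 153 with IL-4 and 348 to 379 with TGF-β + IL-4. In KO it was at 6.14 to 7.84, 13.4 to 16.2, 30.6 to 37.0 and 35.2 to 42.6 RPKM in the same order, below WT in every culture. Unlike *Ccl1*, *Ccr8* rose with IL-4 in WT (1.31 ± 0.08, adjusted p = 0.000109) and in KO (2.16 ± 0.10, adjusted p = 3.1e-06).

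*Ccr6*, the receptor of CCL20, was at 2.87 to 3.19 RPKM in WT control, 14.5 to 15.9 with TGF-β, 0.622 to 0.892 with IL-4 and 7.76 to 9.88 with TGF-β + IL-4, and between 0.268 and 1.36 in all KO libraries. It rose with TGF-β (1.99 ± 0.07, adjusted p = 1.46e-06) and fell with IL-4 (-1.21 ± 0.08, adjusted p = 0.000142), the order of groups that *Ccl20* had.

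*Ccr4*, the receptor of CCL17 and CCL22, was at 10.6 to 12.2 RPKM in WT control, 21.2 to 23.6 with TGF-β, 23.1 to 25.9 with IL-4 and 38.6 to 41.7 with TGF-β + IL-4. In KO it was at 4.32 to 5.17 in control, 5.22 to 5.41 with TGF-β, 19 to 20.2 with IL-4 and 18.1 to 19.7 with TGF-β + IL-4. The rise with IL-4 was called in WT (1.06 ± 0.07, adjusted p = 0.000158) and in KO (1.87 ± 0.08, adjusted p = 2.24e-06). Of the other receptors, *Xcr1* ran from 1.22 to 2.58 RPKM over all libraries, and *Ccr1*, *Ccr3* and the decoy receptor *Ackr2* did not pass 0.301.

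**Figure D4:**
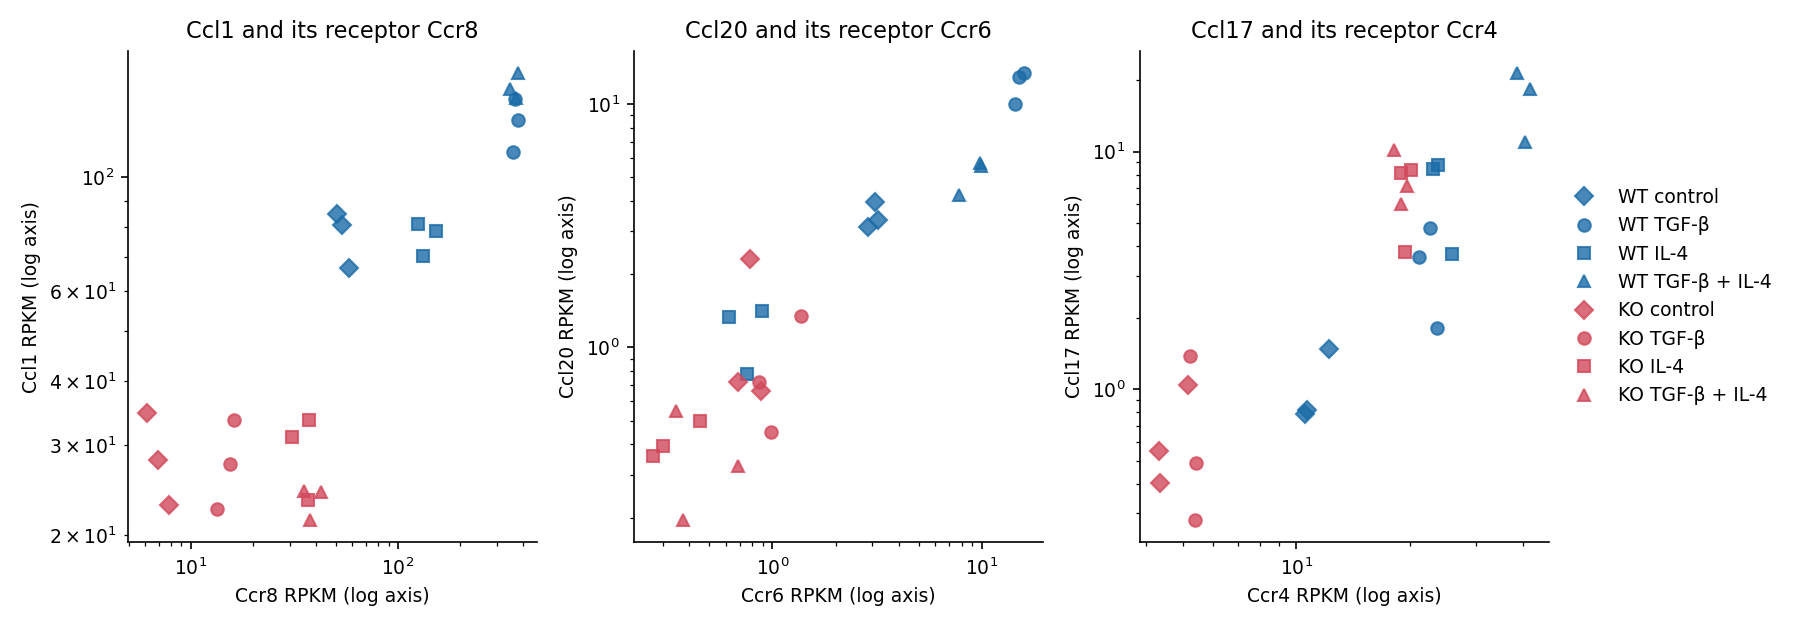
RPKM of a ligand (y axis) against RPKM of its receptor (x axis) in each of the 24 libraries, both on log axes, with WT in blue, KO in red and a symbol per culture, for *Ccl1* with *Ccr8*, *Ccl20* with *Ccr6* and *Ccl17* with *Ccr4*. *Ccl20* and *Ccr6* are both highest in WT TGF-β (9.97 to 13.4 and 14.5 to 15.9 RPKM), whereas *Ccr8* changes among the KO groups with *Ccl1* at 21.4 to 34.7 throughout.

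Among 15 genes that act below chemokine receptors, 3 rose with TGF-β + IL-4 in WT and 12 did not pass, beside 9.27% of all genes called. These were *Rgs1* (0.93 ± 0.06, adjusted p = 7.54e-06) and *Rgs16* (0.87 ± 0.09, adjusted p = 8.05e-05), which shorten G protein signals, and *Pik3cg* (0.68 ± 0.07, adjusted p = 8.46e-05), the catalytic subunit of PI3Kγ. In KO TGF-β + IL-4 none of the 15 rose and 2 fell, beside 1.92%.

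The genes with the most similar profile to each ligand, by Pearson correlation on log2(RPKM + 1) over the 24 libraries, are given as a description, since libraries of 1 group share their culture. *Ccl1* was closest to *Skil* (0.97), which encodes the TGF-β feedback regulator SnoN, and *Ptpn1* (0.96). *Ccl20* was closest to its receptor gene *Ccr6* (0.96) and to the Th17 cytokine gene *Il17f* (0.95). *Ccl17* was closest to *Lgals3* (0.94), which encodes galectin-3, and *Tuba8* (0.94). *Ccl3* was closest to *Nr4a2* (0.93), an early gene of T cell receptor signalling, and *Pcgf5* (0.92), *Ccl4* to *Gpr65* (0.93) and *Dennd5a* (0.91), and *Xcl1* to *Slc29a3* (0.94) and *Gpr171* (0.91). The values were lower for *Ccl22*, with *Serpina3f* (0.86) and *Ube2l6* (0.85), and for *Ccl5*, with the NF-κB subunit gene *Rel* (0.85) and *Herc6* (0.84).

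The DHS lists placed open chromatin at the start of only 2 of the 8 ligand genes. Within 1 kb of the GENCODE vM1 start (mm9), *Ccl4* had a DHS in the control lists of both genotypes and *Xcl1* had one in both WT lists. Of 8855 protein-coding genes with a mean of at least 1 RPKM, 86.3% to 90.3% had one in each list, and 8.49% had one in no list, as had the other 6 ligands. With 1 library per condition there is no test, and the lists differ in length (44298 DHSs in WT control, 33880 in WT with both cytokines, 33665 in KO control and 27145 in KO with both cytokines), so a missing DHS may only be under a list's threshold.

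The *Ccl4* DHS had its summit 182 bases upstream of the start in WT control (4.94-fold over background, -log10 q of 8.73) and 125 bases upstream in KO control (2.85-fold, 2.38). Neither TGF-β + IL-4 list held it, and mean *Ccl4* RNA in those cultures was 222 RPKM in WT and 202 in KO, against 598 and 391 in the controls. Of the 8855 genes, 51 (0.576%) had a start DHS in both controls and in neither cytokine list. The *Xcl1* DHS had its summit 228 bases upstream in both WT control (5.19-fold, 8.58) and WT TGF-β + IL-4 (3.95-fold, 4.57), and neither KO list held it, a pattern shared by 67 genes (0.757%). At a -log10 q of at least 5 the WT control list alone kept a start DHS at a ligand. The 151 bases centred on each summit in WT control are shown as the stretches whose listing differed between conditions, from mm9 in the direction of the gene, for *Ccl4* at chr11:83475829-83475979 (plus strand) and *Xcl1* at chr1:166865811-166865961 (minus strand). No base is in capitals.
*Ccl4* summit: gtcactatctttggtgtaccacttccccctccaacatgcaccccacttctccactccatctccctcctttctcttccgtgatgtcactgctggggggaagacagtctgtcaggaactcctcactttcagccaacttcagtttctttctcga
*Xcl1* summit: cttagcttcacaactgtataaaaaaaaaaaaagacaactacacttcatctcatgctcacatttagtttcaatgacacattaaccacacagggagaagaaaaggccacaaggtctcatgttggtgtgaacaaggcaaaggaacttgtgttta
Their GC content was 51.7% and 37.1%.

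More distant DHSs, within 10 kb of either end of the gene, were listed for 6 ligands in WT and 4 in KO control, and for 4 in WT and 3 in KO with both cytokines (start DHSs included). *Ccl17* had 1 about 8 kb upstream (7899 to 7999 bases) and 1 beyond its end (2391 to 2542 bases from the start) in all 4 lists, with fold enrichments of 4.84 to 7.48 and 3.65 to 7.14. *Ccl1* had 1 at 3582 to 3608 bases upstream in all lists but KO TGF-β + IL-4, the shortest list. The WT control list also held *Ccl1* DHSs at 1730 and 4825 bases past its start. *Ccl3* had 1 at 8772 to 9051 bases past its start in all 4 lists, *Ccl5* 1 at 4262 to 4331 bases upstream in the WT control list and in the KO list with both cytokines, and *Ccl20* and *Ccl22* had none in any list.

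**Figure D5:**
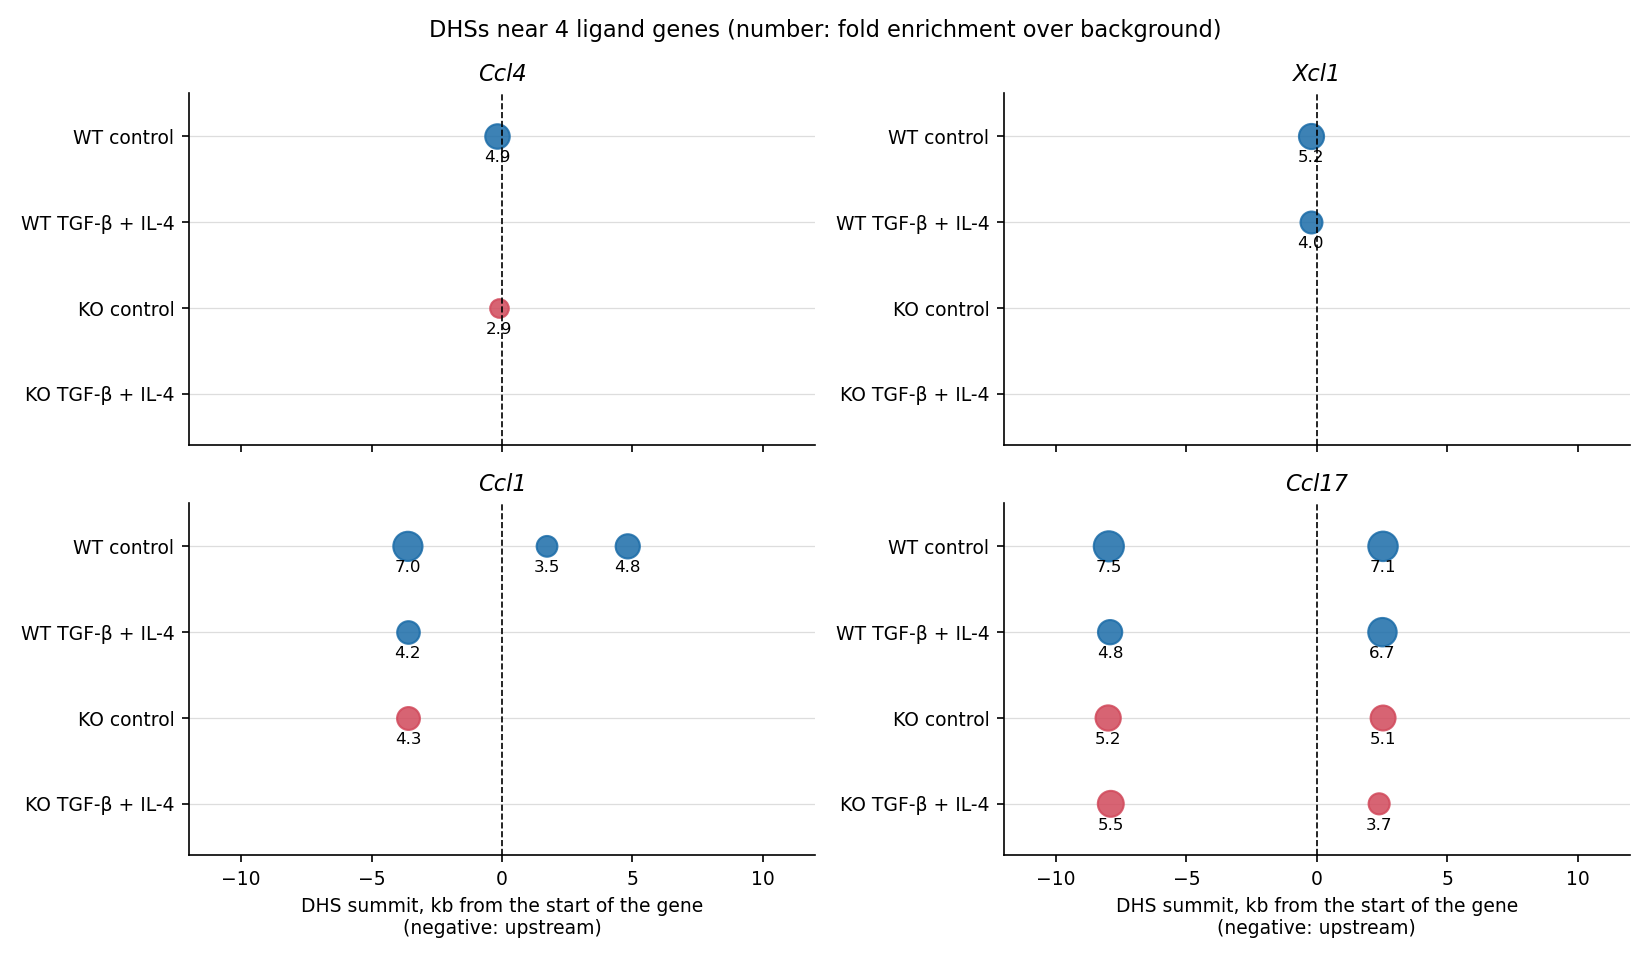
Summits of DHSs within 10 kb of either end of *Ccl4*, *Xcl1*, *Ccl1* and *Ccl17* (x axis, kb from the annotated start in the direction of the gene) in the 4 DNase-seq lists (rows, WT in blue and KO in red), with dot area and the printed number giving fold enrichment. The *Ccl4* start DHS is in both control rows only, the *Xcl1* one in both WT rows only, and *Ccl17* has 2 DHSs in each row.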

How the data were processed

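RNA-seq (Smart-seq2) and DNase-seq libraries of mouse CD4+ T cells were analysed from the files the authors deposited. Per the labels and the study's methods, reads were mapped by the authors with Bowtie2 (mm9), low-quality and redundant reads were dropped, and RPKM values per gene were deposited, normalized to gene length and mapped reads. The DHS lists were made by the authors with MACS2 on single libraries, and the deposited columns used were the fold enrichment (a ratio over background) and the −log10 of the q-value. Tool versions and the gene annotation are not given in the sources used here.

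The 8 ligands and the other gene lists were chosen with earlier results of these data known. Columns were read by position in library-number order. Values were analysed as log2(RPKM + 1) with limma 3.58.1 in R 4.3.3 (moderation with a trend, only the compared groups in each fit, mean RPKM of at least 1), with Benjamini-Hochberg adjustment over all genes. A call needed an adjusted p under 0.01 and a fold over 1.5, where the fold is that of log2(RPKM + 1), which understates changes of low genes, and folds printed as such are ratios of group means. The 8 ligands were named in every comparison, receptors of the ligands by name, of each other list at most 5 called in WT TGF-β + IL-4, and for each ligand the 2 genes with the highest correlation. The procedure was tested on simulated data. Sequences and starts came from the mm9 genome with GENCODE vM1. Alternatives were pseudocount 0.1, no filter, a mean RPKM of 5, median ratio scaling, quantile normalization, 1 fit of all libraries, no trend, an adjusted p under 0.05, a replicate block, leaving out each replicate, columns read by heading, and the 8 WT libraries identified by read counts. The last is, for WT, the same fit as leaving out replicate 2. RPKM carry no read totals, so no counting intervals are given. The values of 1 receptor gene are not reported here.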

Additional observations from a re-analysis of the deposited data

Results flagged for a closer look

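The effect of a cytokine condition differed between WT and KO cells by an interaction test (limma, adjusted over all genes) for 6 results. These were 3 of 8 ligands for TGF-β, beside 4.71% of all genes, and 3 of 8 for TGF-β + IL-4, beside 4.18%. For IL-4 it was 0 of 8 beside 0.0414%. The calls of *Ccl20*, *Ccl1* and *Xcl1* were lost without replicate 1 or 3. For TGF-β against control, the KO effect minus the WT effect on the log2 scale was -1.77 for *Ccl20*, 2.10 for *Ccl3* and 1.44 for *Ccl4*. For TGF-β + IL-4 against control it was -1.22 for *Ccl1*, 1.15 for *Ccl3* and -0.81 for *Xcl1*. WT *Ccl3* fell from a mean of 136 RPKM in control to 36.2 with TGF-β, while KO *Ccl3* was at 75 and 86.5 RPKM. WT *Ccl20* rose from 3.48 to 12.1 RPKM, while KO *Ccl20* was at 1.23 and 0.839. Groups of 3 libraries were not searched for single libraries that stand apart.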

How the results depend on the processing

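Of 52 calls of single ligands, 50 kept direction and threshold under median ratio scaling, 49 under quantile normalization, 50 with a pseudocount of 0.1, 47 without a trend, 38 with no filter on low values and 52 with all libraries in 1 fit. Of the 44 that a mean RPKM of 5 left testable, 44 did. The 8 WT libraries identified by read counts, which give the same WT fits as leaving out replicate 2, kept 17 of 20. Read by heading, 0 ligands were called in all 16 comparisons, and *Ccl3* (log2 change 0.0154) and *Ccl4* (log2 change 0.0047) under IL-4 in WT changed sign. With no filter, WT IL-4 called 2 ligands, adding IL-4 to TGF-β 1, KO IL-4 2 and KO TGF-β + IL-4 3. WT IL-4 also called 2 in the 8 identified libraries. At a mean RPKM of 5 it called 2 of the 6 ligands tested, and *Ccl17* and *Ccl20* were below that filter. At an adjusted p under 0.05, KO control against WT control called 5. The replicate block, which pairs samples by a number that the labels do not explain, called 2 for WT IL-4 (*Ccl17* and *Ccl20* lost) and 2 for the KO combination (*Ccl3*, *Ccl22* and *Xcl1* lost) and kept 44 of 52 calls, and deviations of same-numbered samples correlated at -0.09 to 0.55 in WT and -0.30 to 0.42 in KO. Leaving out 1 replicate number gave 3 to 5 called ligands for WT TGF-β, 0 to 3 for WT IL-4, 4 to 6 for WT TGF-β + IL-4, 1 to 3 for IL-4 added to TGF-β, 4 to 5 for TGF-β added to IL-4, 3 to 4 for KO IL-4, 0 to 5 for KO TGF-β + IL-4, 2 to 3 for KO against WT control, 4 to 7 under TGF-β, 4 to 5 under IL-4, 3 to 4 under TGF-β + IL-4, 2 to 5 for the interaction of genotype with TGF-β and 1 to 3 with TGF-β + IL-4, and it leaves 2 libraries per group. The other causes were not tested. DHSs rest on 1 library per condition.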

Other observations

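Other chemokine genes changed with TGF-β + IL-4 in WT cells as well. Of 29 other ligands, 9 passed the filter, 2 rose and 2 fell against control, where 9.27% of all genes were called. *Ccl24*, which encodes a ligand of the eosinophil receptor CCR3, rose (2.09 ± 0.23 SE on the log2 scale, adjusted p = 0.000118 by limma) and was at 6.44 to 9.21 RPKM with IL-4 alone and at 0.0898 to 1.05 in control. *Cxcl16* rose (0.77 ± 0.13) and its receptor gene *Cxcr6* rose too (1.17 ± 0.10). *Pf4* (-0.96 ± 0.23) and *Ccl9* (-0.63 ± 0.08) fell. Of 15 other receptors, 5 passed the filter and 3 were called beside the same 9.27%, and with *Cxcr6* the Th1-type receptor gene *Cxcr3* rose (1.02 ± 0.06) and *Cxcr2* fell (-0.81 ± 0.10). Over the 12 KO libraries *Cxcr6* ran from 1.58 to 4.45 RPKM and *Cxcr3* from 5.69 to 8.95, against 6.2 to 7.83 and 18.6 to 20.4 with TGF-β + IL-4 in WT.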
